A study of Mus musculus with 16 samples.

Results

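Actin cytoskeleton genes were examined in mouse bone marrow derived macrophages (BMDMs). The set held 49 genes, found by an exact match of the gene symbol in the deposited count table, out of 22287 genes in all. The rule used the symbol and no measured value. Of the 49 genes, 48 passed the filter on low counts and were tested among 12514 genes. The remaining gene was Myl9, a myosin regulatory light chain of smooth muscle and non-muscle cells, with 0 to 7 counts per library. All groups came from bone marrow of C57BL/6J mice aged 8 weeks, without any genetic change named in the labels. Bone marrow cells were cultured for 7 days in the presence of a growth factor that drives marrow progenitors towards myeloid fates, either GM-CSF at 20 ng/ml (cells named GM) or M-CSF at 50 ng/ml (cells named M). They were kept on tissue culture treated dishes (TC) or on dishes without that treatment (noTC), and received vehicle (steady state) or 100 ng/ml LPS, the endotoxin of Gram-negative bacteria, for 3 h. The 4 cultures are named by cell and dish (GM-TC, M-noTC and so on), with LPS appended where it was given, which makes 8 groups of 2 libraries and 16 libraries in all. GM and M cells also differed in growth factor dose and in seeding density, which cannot be told apart from the growth factor itself.

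Total counts lay between 17527802 and 31458363 per library, and 3 counts, taken as the detection floor, corresponded to 0.0954 to 0.171 CPM (counts scaled to a common library total). All 8 macrophage markers examined, among them Csf1r, Adgre1, Cd68 and Lyz2, were detected in every library, with a summed level of 20531 to 47803 CPM. No pair of replicates agreed within sampling noise. The chi-square per gene between replicates was 1.91 to 5.13 in 7 groups and 12.5 in GM-TC, whose libraries thus stood furthest apart. The summed level of 15 heart and striated muscle markers was 27.5 to 71.7 CPM in both TC groups without LPS and 0.943 to 2.46 CPM elsewhere. The 2 libraries of a group were biological replicates per the study, but the animals behind them were not given, so the p-values measure the spread between these libraries.

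Actin monomers assemble into filaments that carry the cortex, lamellipodia, podosomes and phagocytic cups of macrophages. The Arp2/3 complex branches filaments when it is switched on by nucleation promoting factors such as WASP, while formins and Ena/VASP proteins elongate unbranched filaments. Coronins, cofilin, gelsolin and capping proteins take filaments apart or stop their growth. Fimbrin, alpha-actinin, filamin and transgelin bundle or crosslink them, ERM and MARCKS proteins link them to the plasma membrane, non-muscle myosin II pulls on them, and tropomyosins line them. The 49 genes were grouped along these roles into 12 families.

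Many actin genes are textbook targets of serum response factor, which binds the CArG box, a motif of 10 bases, and whose cofactors are held by actin monomers. The promoters of the genes were therefore shown where they hold such a motif, searched on both strands from 250 bases before to 50 bases after the RefSeq start site (build GRCm38.p6). A promoter was found for 42 of the 49 genes. Those not matched were Actb, Cttn, Coro1b, Marcks, Lsp1, Rac1 and Diaph1. A CArG box was present in 4 of the 42 (9.52%), against 1.81% of all 27025 symbols in that table. The 4 stretches follow with the motif in capitals, 5′ to 3′ on the strand of the gene. The Actg1 stretch lies at chr11:120348551-120348610 (minus strand), its motif starting 90 bases before the start site. That of Myl6 lies at chr10:128493025-128493084 (minus strand), 50 bases before, the Myl9 stretch at chr2:156775278-156775337 (plus strand), 161 bases before, and the Arpc4 stretch at chr6:113377863-113377897 (plus strand), 250 bases before.
Actg1: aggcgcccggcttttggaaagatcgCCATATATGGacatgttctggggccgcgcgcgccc
Myl6: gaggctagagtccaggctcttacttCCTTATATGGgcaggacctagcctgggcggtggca
Myl9: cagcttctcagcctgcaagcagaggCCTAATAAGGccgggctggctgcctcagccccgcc
Arpc4: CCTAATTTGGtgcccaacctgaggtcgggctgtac
A match describes the letters and no binding of a factor. The 10-base NF-kB motif was found in 4 of the 42 genes as well (9.52%, against 5.14% of all symbols), namely Flna, Myl12a, Myl9 and Rdx.

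The members were abundant. In GM-TC they went from 2.10% to 2.11% of all counts at steady state to 2.61% to 2.64% upon LPS, and in GM-noTC from 2.32% to 2.36% up to 2.66% to 2.67%. M-TC cells went from 2.45% to 2.46% up to 3.23% to 3.30%, and M-noTC cells from 2.85% in both libraries to 3.16% and 3.20%. The share was thus higher after LPS in each culture, without overlap. Per length, as CPM per kilobase of the longest protein-coding transcript in GENCODE, the leading members were the same pair of genes in all 8 groups. Actg1, cytoplasmic gamma-actin, led in the 4 GM groups and Actb, cytoplasmic beta-actin, in the 4 M groups. In GM-TC the levels were 1168 for Actg1 and 1074 for Actb, followed by 396 for both Capg, which caps barbed ends, and Pfn1, profilin. In M-TC they were 1109 for Actb and 694 for Actg1, followed by 386 for Pfn1 and 373 for Lcp1, the leukocyte fimbrin. After LPS, Marcksl1, a membrane-bound MARCKS relative that crosslinks actin, stood in the fifth place in both GM groups and in the third place in both M groups, at 1717 in M-TC-LPS. Cttn, cortactin, was low throughout at 2.64 in GM-TC and 0.104 in M-TC.

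**Figure D1:**
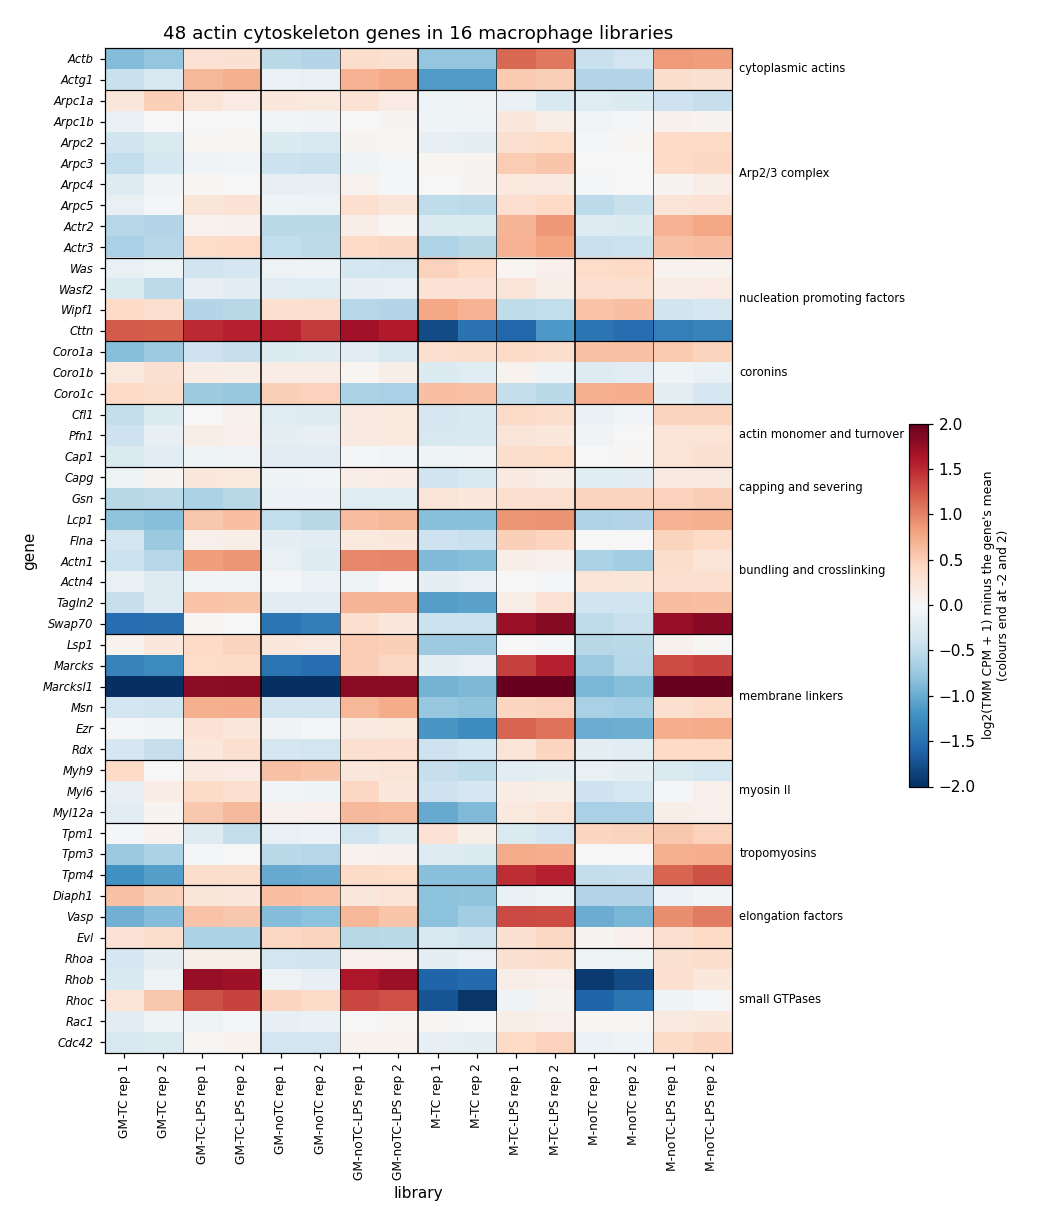
Heatmap of the 48 tested genes (vertical axis, by family) in the 16 libraries (horizontal axis), as log2(TMM scaled CPM + 1) minus the mean of the gene, with colours ending at -2 and 2. Replicates share their colours, Cttn is high in all GM libraries, and Marcksl1, Swap70 and Rhob are higher after LPS in each culture.

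The Actb and Actg1 coding sequences in GENCODE are both 1125 bases long without the stop codon and identical at 997 of them (88.6%), with a longest identical run of 62 bases. Reads inside such runs are assigned by the estimation of the authors' software, so that the split between both genes carries that uncertainty. Within a library, the ratio of Actb to Actg1 counts does not depend on scaling between libraries. It was 0.898 to 0.911 in the 4 GM libraries at steady state and 0.900 to 0.966 in the 4 GM libraries after LPS. In M cells it was 1.57 in both M-TC libraries and 1.35 and 1.40 in M-noTC, and after LPS 1.89 and 1.83 in M-TC and 1.74 and 1.76 in M-noTC. The M libraries thus lay above all GM libraries, and the ratio in M cells was higher after LPS on either dish.

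Upon LPS challenge most of the actin genes moved. With TMM scaling, 35 of 48 members were called higher and 6 lower in GM-TC cells, against 33 and 8 for GM-noTC, 38 and 4 for M-TC and 35 and 4 for M-noTC, at a Benjamini-Hochberg adjusted p under 0.05 in edgeR's quasi-likelihood test. Over all tested genes the share called higher was 32.8%, 33.6%, 37.6% and 36.4%, and the share called lower 34.2%, 34%, 36.4% and 35.9%, in the same order. The median log2 fold change of the members was 0.36, 0.38, 0.71 and 0.46, beside -0.05, -0.03, -0.01 and -0.01 over all tested genes. In all 4 cultures 31 members were called higher (25% of all genes) and 3 lower (22.7%), namely Was, Wipf1 and Coro1c. These directions are relative to the bulk of genes. Scaled by library size only, the median of all genes moved to -0.53, -0.54, -0.83 and -0.73, and the members were called higher and lower at 19 and 24 (GM-TC), 17 and 25 (GM-noTC), 18 and 25 (M-TC) and 16 and 27 (M-noTC). The share of members' calls that were lower was then 55.8% to 62.8%, against 9.52% to 19.5% with TMM. The members' median was -0.12, -0.13, -0.11 and -0.26 by library size only, less negative than that of all genes. Under both scalings 15 members were higher in all 4 cultures, namely Actb, Actg1, Actr2, Actr3, Lcp1, Actn1, Tagln2, Swap70, Marcks, Marcksl1, Msn, Tpm4, Vasp, Rhob and Rhoc. The summed level of 12 smooth muscle and stroma markers, which hold the smooth muscle actin Acta2, was 2.36 to 10.6 CPM at steady state and 24.5 to 57.1 after LPS. Most of it after LPS came from Pdgfrb (21.5 to 39.5 CPM in the group means), the smooth muscle gene Cnn1 was at 0 in all groups at steady state and at most 0.0257 after LPS, and the part of these markers in the LPS response was not tested. In these bulk libraries fewer cells that express a gene and less RNA per cell cannot be told apart.

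**Figure D2:**
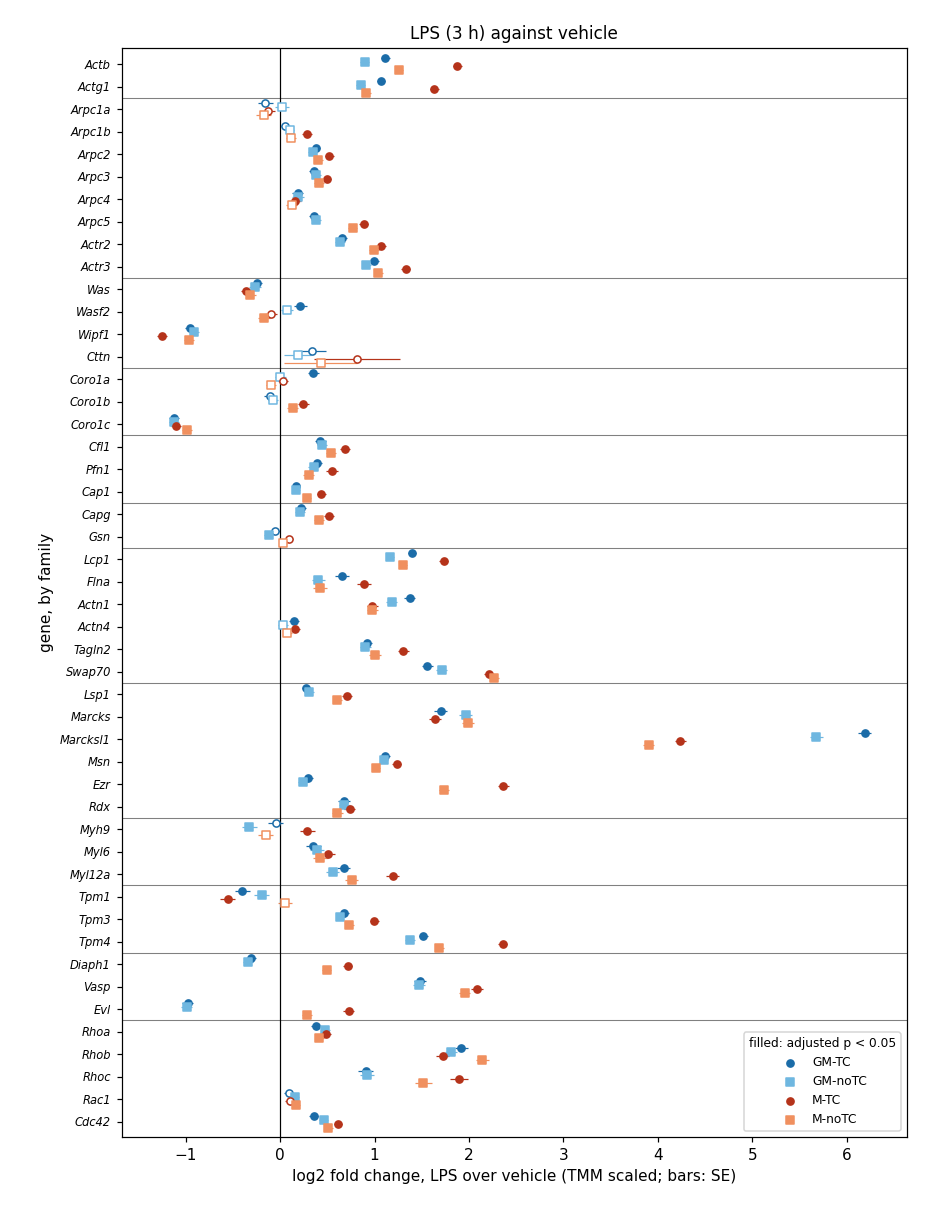
Log2 fold change upon LPS (x axis, TMM scaled, bars show the SE) of each of 48 genes (y axis, by family) in the 4 cultures, filled where the adjusted p was under 0.05. Marcksl1 stands furthest to the right in every culture, and Evl lies left of 0 in both GM cultures and right of 0 in both M cultures, whereas by library size only Evl lies left of 0 in all 4.

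Both cytoplasmic actins rose upon LPS under either scaling. In GM-TC cells Actb went from 1991 and 2133 TMM scaled CPM at steady state to 4442 and 4486 upon LPS, and in GM-noTC cells from 2501 and 2429 to 4647 and 4519. M-TC cells went from 2132 and 2126 to 8087 and 7551, and M-noTC cells from 2682 and 2778 to 6582 and 6480.1. Every LPS library lay above every steady state library, and the M libraries above the GM libraries after LPS. Upon LPS the log2 fold change of GM-TC was 1.11 ± 0.05 (SE) and that of GM-noTC 0.89 ± 0.05, against 1.88 ± 0.05 for M-TC and 1.26 ± 0.05 for M-noTC, with adjusted p from 1.2e-19 to 9.9e-14 in edgeR. Actg1 went from 2185 and 2376 CPM to 4703 and 4858 in GM-TC cells and from 2758 and 2689 to 4811 and 5023 in their noTC counterparts. Their M-TC relatives went from 1361 and 1350.3 to 4281 and 4134, and M-noTC cells from 1979.8 and 1983 to 3786 and 3679.8. Here the GM libraries were the higher ones before and after LPS, with log2 fold changes upon LPS of 1.07, 0.85, 1.63 and 0.91 in the order above.

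The MARCKS pair held the largest response of the set. Marcksl1 increased from 12.1 and 14.3 CPM to 962 and 973 in GM-TC cells and from 19.4 and 18.5 to 969 and 971 in GM-noTC cells. The M cells started higher, with 143 and 149 on TC and 147 and 154 on noTC, and reached 2776 and 2736 on TC and 2192 and 2311 on noTC. The groups did not overlap, and the lowest LPS library exceeded the highest steady state library several fold in each culture. The log2 fold change of GM cells was 6.19 ± 0.07 on TC and 5.68 ± 0.07 on noTC, and that of M cells 4.24 ± 0.06 and 3.90 ± 0.06, with edgeR adjusted p from 2.5e-25 to 1.4e-23. Marcks, its larger relative, went from 75.1 and 78.5 CPM to 249 and 249.8 in GM-TC cells and from 69.3 and 65.9 to 270.3 and 257 in GM-noTC cells. For M cells the values were 168 and 172 before and 496 and 566 after LPS on TC, and 115 and 128 before and 476 and 493 after it on noTC. Without overlap in any culture, it rose by a log2 fold change of 1.64 to 1.99 over the 4 cultures. Within a library, the ratio of Marcksl1 to Marcks counts went from 0.161 and 0.182 in GM-TC to 3.86 and 3.89 after LPS, and from 0.851 and 0.864 in M-TC to 5.60 and 4.83.

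The ERM proteins ezrin (Ezr), moesin (Msn) and radixin (Rdx) tether the cortex to membrane proteins. Msn rose by a log2 fold change of 1.02 to 1.23 and Rdx by 0.61 to 0.73 with TMM scaling, though Rdx was not called in M cells by library size only. Ezr moved from 93.9 and 92.3 CPM to 116 and 112 in GM-TC cells, and from 91.0 and 92.5 to 108 and 109 in GM-noTC cells. M-TC cells moved from 42.0 and 39.3 to 214 and 204, and M-noTC cells from 47.6 and 47.9 to 158 and 160.2. At steady state the GM libraries were the high ones, whereas after LPS the M libraries were. The log2 fold change was 2.36 ± 0.06 in M-TC and 1.74 ± 0.05 in M-noTC, against 0.29 ± 0.05 in GM-TC and 0.24 ± 0.05 in GM-noTC, where it turned to -0.19 and -0.27 when scaled by library size only. The ratio of Ezr to Msn counts within a library fell from 0.0797 to 0.0816 in GM cells to 0.0435 to 0.0471 after LPS, and rose in M cells from 0.0455 to 0.0508 to 0.0816 to 0.105.

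Among the bundling and crosslinking genes, Lcp1, Actn1 (alpha-actinin 1), Tagln2 (transgelin 2) and Swap70 rose in all 4 cultures under either scaling. Swap70, a filament binding protein, went from 44.6 and 44.9 CPM to 132 and 131 in GM-TC cells and from 46.5 and 49.1 to 162 and 151 in GM-noTC cells. In M-TC cells it went from 96.2 and 96.4 to 432 and 462, and in M-noTC cells from 91.5 and 95 to 439 and 459. The highest GM library after LPS thus stayed below the lowest M library after LPS, and the log2 fold change ran from 1.56 ± 0.06 in GM-TC to 2.27 ± 0.05 in M-noTC. Lcp1 rose by a log2 fold change of 1.16 to 1.73, and Actn1 by 1.18 and 1.37 in GM cells and 0.97 and 0.98 in M cells. Tagln2 went from 276 and 318 CPM to 565 and 559 in GM-TC cells and from 328 and 324 to 611 and 609 in GM-noTC cells. M-TC cells went from 177 and 181 to 419 and 465, and M-noTC cells from 289 and 288 to 582 and 576. Its log2 fold change was 0.90 to 1.3, without overlap between LPS and steady state in any culture.

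With TMM scaling 5 to 7 of the 8 Arp2/3 complex genes were called higher upon LPS, depending on the culture, and 0 lower. By library size only the complex did not move as a unit. Its actin-like subunits Actr2 and Actr3 rose in all 4 cultures under both scalings, by a log2 fold change of 0.63 to 1.07 and 0.91 to 1.33 with TMM. Arpc2, Arpc3 and Arpc5 rose by 0.34 to 0.88 with TMM, but Arpc2 and Arpc3 were called lower in all 4 cultures by library size only. Under that scaling Arpc1b and Arpc4 were likewise lower in all 4. Arpc5 was then lower in GM-TC (-0.12) and GM-noTC (-0.13) and not called in M cells. Arpc1a passed in no culture with TMM, at -0.18 to 0.02, but was lower in GM-TC without GM-TC replicate 1 (-0.26) and in all 4 by library size only (-0.96 to -0.49). Of the nucleation promoting factors, Was, the WASP protein, changed by -0.25 to -0.36 and Wipf1, which binds and protects WASP, by -0.91 to -1.25, both called lower in all 4 cultures under either scaling. Wipf1 read 142 and 136 CPM in GM-TC and 71.2 and 72.4 after LPS, and 183 and 175 in M-TC and 74.9 and 75.7 after LPS. Among the coronins, which bind filaments and the Arp2/3 complex, Coro1c changed by -0.98 to -1.13, also lower in all 4 under either scaling. Coro1a, by contrast, changed by 0.35 ± 0.06 (adjusted p = 1.3e-05 in edgeR) in GM-TC and by 0.00, 0.03 and -0.10 in GM-noTC, M-TC and M-noTC, none of which passed. The GM-TC value turned to -0.13 by library size only, and the ratio of Coro1c to Coro1a counts fell from 2.96 and 3.33 in GM-TC to 1.12 and 1.13 after LPS.

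The tropomyosins parted. Tpm4 increased from 236 and 254 CPM to 699 and 702 in GM-TC cells and from 271 and 275 to 716 and 704 in GM-noTC cells. M-TC cells increased from 306 and 305 to 1521 and 1603, and M-noTC cells from 395 and 399 to 1229 and 1325. Its log2 fold change was 1.52, 1.38, 2.36 and 1.69 in that order, without overlap. Tpm1 went from 35.7 and 38.4 CPM to 30.3 and 26.0 in GM-TC cells and from 33.0 and 33.7 to 27.7 and 30.5 in GM-noTC cells. A decrease was also seen in M-TC cells, from 45.0 and 40.1 to 29.8 and 27.9, whereas M-noTC cells read 49.5 and 50.5 before and 53.4 and 50.5 after LPS. It fell in GM-TC and M-TC, by a log2 fold change of -0.40 ± 0.08 and -0.56 ± 0.08, whereas in M-noTC the change was 0.06 ± 0.07 and did not pass, and turned to -0.67 by library size only. The call in GM-noTC (-0.20 ± 0.08, adjusted p = 0.037 in edgeR) was lost without any 1 of GM-noTC replicate 1, GM-noTC replicate 2 and GM-noTC-LPS replicate 1, with values over the leave-outs from -0.27 to -0.13. The ratio of Tpm4 to Tpm3 counts within a library was 0.844 to 0.946 in all steady state libraries and 1.53 to 2.23 in all LPS libraries.

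Of the elongation factors, Vasp rose by a log2 fold change of 1.47 to 2.09, while its relative Evl moved in opposite directions in GM and M cells with TMM scaling. Evl fell from 76.4 and 79.7 CPM to 39.6 in both libraries of GM-TC cells and from 83.0 and 85.0 to 42.2 and 42.5 in GM-noTC cells. M-TC cells went from 49.9 and 47.0 to 77.2 and 83.0, and M-noTC cells from 64.5 and 66.9 to 78.2 and 81.9. The GM libraries were higher at steady state and the M libraries after LPS, without overlap. The log2 fold change was -0.98 and -0.99 in GM-TC and GM-noTC and 0.72 and 0.28 in M-TC and M-noTC. By library size only Evl was below 0 in all 4 cultures, at -0.10 in M-TC, which did not pass, and at -0.44 in M-noTC, called lower, so that the directions were no longer opposite. The formin Diaph1 likewise had -0.31 and -0.34 in GM cells and 0.71 and 0.49 in M cells, but -0.11 and -0.23 in M cells by library size only.

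Rhob, an immediate early gene, and Rhoc, whose product drives actin contractility, rose in all 4 cultures under either scaling. Rhob increased from 101 and 116 CPM to 418 and 406 in GM-TC cells and from 116 and 110.4 to 383 and 408 in GM-noTC cells. M-TC cells increased from 40.4 and 41.6 to 137 and 134, and M-noTC cells from 32.3 and 35.4 to 155 and 145. The log2 fold change was 1.72 to 2.14, and GM libraries stayed above M libraries in both states. Rhoc went from 60.5 and 72.7 CPM to 122 and 128 in GM-TC cells and from 67.1 and 65.3 to 127 and 123 in GM-noTC cells. M-TC cells went from 14.2 and 12.2 to 46.5 and 51.8, and M-noTC cells from 15.7 and 17.3 to 46.7 and 48.2. No culture had overlapping groups, with log2 fold changes of 0.91, 0.92, 1.90 and 1.52. Rhoa and Cdc42 rose by 0.35 to 0.61 with TMM, but by library size only Rhoa was called lower in M-TC (-0.34) and M-noTC (-0.31), and Cdc42 in GM-TC (-0.13), M-TC (-0.22) and M-noTC (-0.21).

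**Figure D3:**
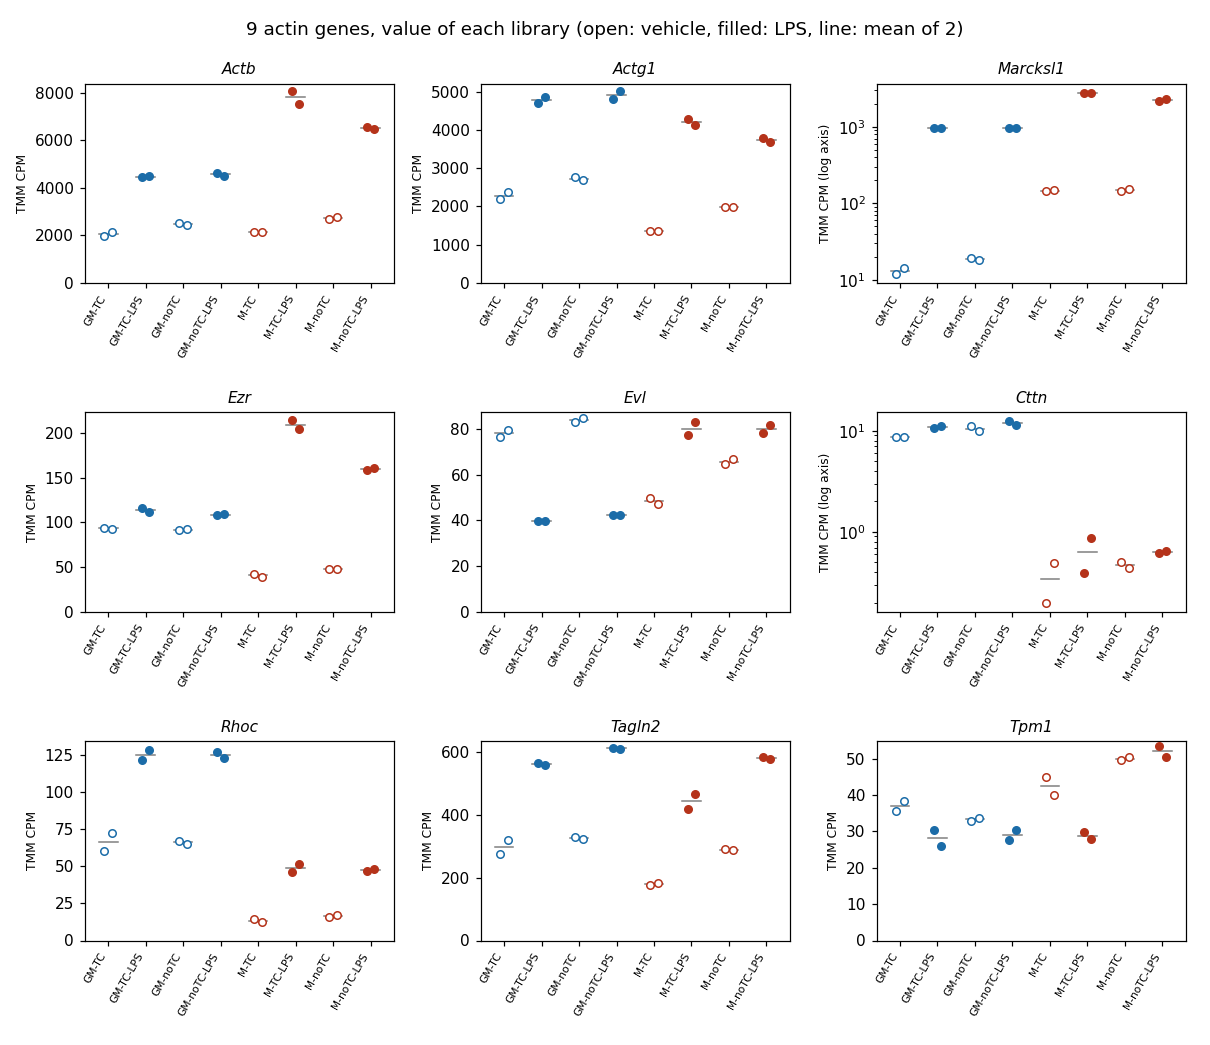
TMM scaled CPM (y axis, log axis for Marcksl1 and Cttn) of 9 actin genes in each library of the 8 groups (x axis), open for vehicle and filled for LPS, with the mean of 2 libraries as a line. Ezr and Evl are higher in GM than in M cells before LPS and lower after it, and Tpm1 after LPS is higher in M-noTC (50.5 and 53.4) than in the other groups (26.0 to 30.5).

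GM and M cells were compared next, on each dish and in each state. On TC at steady state 18 of 48 members were called higher and 20 lower in GM cells, with 18 and 25 on noTC, 14 and 27 on TC after LPS, and 13 and 27 on noTC after LPS. The share of all tested genes called higher was 32.6%, 31.4%, 33.9% and 33.5%, and called lower 28.9%, 30.7%, 32.9% and 32.6%, in that order. The members' median log2 fold change was -0.04, -0.14, -0.20 and -0.21, against 0.02, 0.00, 0.03 and 0.02 over all tested genes. By library size only the median of all genes was -0.29 at steady state on either dish. That of the members was -0.35 on TC and -0.43 on noTC. Under this scaling 13 members were higher and 30 lower on TC and 11 and 31 on noTC. Of these calls 69.8% and 73.8% were lower, against 52.6% and 58.1% with TMM. The share of all genes called was not counted by library size only. In all 4 comparisons 13 members were called higher in GM cells (17.5% of all genes) and 16 lower (16.3%). The higher ones were Actg1, Arpc1a, Cttn, Coro1b, Actn1, Lsp1, Msn, Myh9, Myl6, Myl12a, Diaph1, Rhob and Rhoc. The lower ones were Arpc2, Arpc3, Actr2, Was, Wasf2, Coro1a, Coro1c, Cap1, Gsn, Swap70, Marcks, Marcksl1, Tpm3, Tpm4, Rac1 and Cdc42.

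Cttn, an activator of the Arp2/3 complex found in podosomes, differed most. GM cells on TC had 8.68 and 8.66 CPM at steady state and 10.7 and 11.2 upon LPS, and those on noTC had 11.1 and 9.90 followed by 12.4 and 11.5. M cells on TC had 0.199 and 0.486 CPM at steady state and 0.394 and 0.872 upon LPS, and those on noTC had 0.505 and 0.441 followed by 0.616 and 0.649. All GM libraries lay above all M libraries, whose levels were within several fold of the detection floor. GM cells exceeded M cells by a log2 fold change of 4.62 ± 0.25 on TC and 4.47 ± 0.21 on noTC at steady state, and of 4.14 ± 0.24 and 4.23 ± 0.23 after LPS, with edgeR adjusted p from 3.4e-14 to 1.2e-12. With TMM scaling LPS gave no call for Cttn in any of the 4 cultures, at 0.19 to 0.81. It was called lower in GM-noTC by library size only (-0.32) and higher in M-TC without M-TC replicate 2 (1.60) or M-TC-LPS replicate 1 (1.31), over leave-outs from 0.18 to 1.60, and higher in GM-TC (0.35) with DESeq2 size factors, without the expression filter and with the libraries of the comparison only. The summed level of 6 dendritic cell markers was 46.0 to 84.9 CPM in GM and 0.838 to 4.39 CPM in M libraries, and that of 8 neutrophil markers 12.7 to 44.7 and 0.337 to 2.05 CPM. Likewise 6 mast cell and basophil markers summed to 18.2 to 32.8 CPM in GM and 3.25 to 8.22 in M libraries. Most of that sum was Kit, with group means of 18.3 to 29.8 CPM in GM and 3.82 to 7.44 in M cells. The 6 lymphocyte markers summed to at most 1.18 in any library. The 6 endothelium and platelet markers summed to 45.6 to 61.8 CPM in GM and 16.4 to 17.9 in M libraries at steady state. After LPS these sums overlapped, at 101 to 112 CPM in GM and 95.8 to 124 in M libraries. The part of all these markers in the growth factor differences was not tested.

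Rhoc and Rhob followed the same direction. Rhoc was higher in GM cells by a log2 fold change of 2.34 ± 0.09 and 2.0 ± 0.09 at steady state and 1.35 ± 0.08 and 1.40 ± 0.08 after LPS, and Rhob by 1.40 to 1.74. Within a library the ratio of Rhoc to Rhoa counts was 0.152 to 0.237 in GM and 0.0266 to 0.0813 in M libraries. All 3 tested myosin II genes, the heavy chain Myh9 and the light chains Myl6 and Myl12a, were higher in GM cells in all 4 comparisons, by 0.23 to 0.88, although Myl6, like Msn, was not called at steady state by library size only. Of the 13 genes higher in all 4 comparisons, that scaling also ended the calls of Arpc1a (0.14) and Actn1 (0.05) on TC at steady state and of Coro1b on noTC at steady state and after LPS (0.11 each). After LPS the Myl6 calls were lost without GM-TC-LPS replicate 1 (0.20), M-TC-LPS replicate 2 (0.21), GM-noTC-LPS replicate 1 (0.17) or M-noTC-LPS replicate 1 (0.22), and the Coro1b calls without GM-TC-LPS replicate 1 or 2 (0.15 each), M-TC-LPS replicate 2 (0.07), GM-noTC-LPS replicate 2 (0.14) or M-noTC-LPS replicate 2 (0.16). Among the 16 lower ones, Rac1 lost its call on TC after LPS without GM-TC-LPS replicate 1 (-0.14) and Cdc42 on TC at steady state without M-TC replicate 1 (-0.13). Lsp1, a leukocyte filament binding protein, was higher by 0.44 to 0.88. Actg1 was higher in GM cells by 0.75, 0.46, 0.18 and 0.40, whereas Actb differed by -0.05 ± 0.05 and -0.15 ± 0.05 at steady state (-0.36 and -0.44 by library size only) and was lower in GM cells by -0.81 ± 0.05 and -0.51 ± 0.05 after LPS. The Actb call on noTC at steady state was lost without GM-noTC replicate 2 or M-noTC replicate 2 (-0.13).

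The lower genes were led at steady state by Marcksl1, at -3.46 ± 0.07 on TC and -2.99 ± 0.06 on noTC, and after LPS by Swap70, at -1.76 ± 0.05 and -1.52 ± 0.05. Marcksl1 then stood at -1.51 ± 0.05 and -1.21 ± 0.05. Marcks was lower by -0.85 to -1.15 over the 4 comparisons, and Swap70 by -1.11 and -0.96 at steady state. Coro1a, the leukocyte coronin, had 74.9 and 81.7 CPM in GM against 172 and 174 in M cells on TC, and 112 and 114 against 204 in both M libraries on noTC. Upon LPS the levels were 102 and 98.3 against 178 and 175 on TC, and 117 and 110.2 against 197 and 185 on noTC. No GM library reached an M library, and the log2 fold change was -1.14, -0.85, -0.82 and -0.75. Gsn, gelsolin, which severs and caps filaments, had 201 and 206 CPM in GM against 353 and 342 in M cells on TC, and 273 and 272 against 405 and 404 on noTC. Upon LPS the levels were 191 and 202 against 373 and 368 on TC, and 251 and 250.1 against 409 and 417 on noTC. It was lower in GM cells by -0.57 to -0.92, again without overlap. Tpm1 was not called on TC after LPS (-0.04 ± 0.09), and on TC at steady state its call (-0.20 ± 0.08) was lost without GM-TC replicate 1 or M-TC replicate 1, with values over the leave-outs from -0.29 to -0.13.

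**Figure D4:**
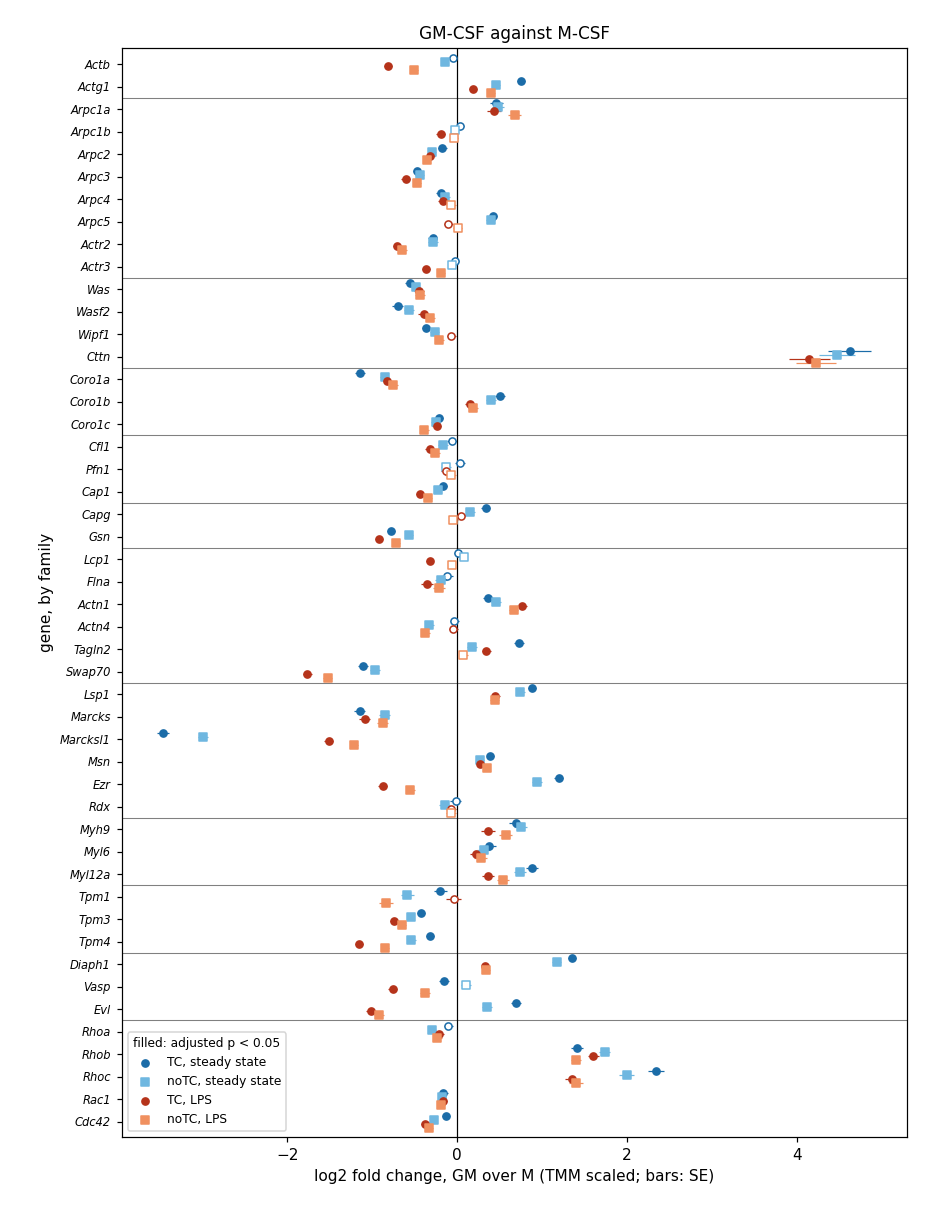
Log2 fold change of GM over M cells (x axis, TMM scaled, bars show the SE) of each of 48 genes (y axis, by family) on both dishes before and after LPS, filled where the adjusted p was under 0.05. Cttn lies above 4 in each comparison, Marcksl1 is lowest at steady state, and Ezr and Evl change sides between steady state and LPS.

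The influence of the dish surface was smaller. Comparing noTC with TC at steady state, 9 members were called higher and 0 lower in GM cells, against 4.69% and 2.85% of all tested genes, and 25 higher and 4 lower in M cells, against 16.1% and 11.1%. After LPS 2 were higher and 0 lower in GM cells (2.08% and 0.727% of all genes), and 6 higher and 8 lower in M cells (10.4% and 12.9%). By library size only the last pair was 13 higher and 5 lower. The members' median log2 fold change was 0.06 in GM and 0.16 in M cells at steady state, and 0.03 and -0.03 after LPS. Only Gsn was called higher in all 4 comparisons (0.447% of all genes), and 0 members were lower in all 4 (0.0799%). The GM count at steady state depended on the libraries: it was 15 without GM-TC replicate 2 and 4 in a fit to the libraries of this comparison only, and 4 members were called lower without GM-TC replicate 1. In M cells at steady state both counts were smaller whichever of the 4 libraries was left out. The fewest calls higher were seen without M-TC replicate 2. After LPS 3 members were higher in M cells without M-noTC-LPS replicate 1.

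Both actins were higher on noTC at steady state. Actb rose by a log2 fold change of 0.26 ± 0.05 (adjusted p = 0.00077 in edgeR) in GM and 0.36 ± 0.05 (3.4e-06) in M cells, and Actg1 by 0.26 ± 0.05 (0.00087) and 0.55 ± 0.05 (1.1e-08). In the fit to the 4 libraries of the GM comparison alone, the adjusted p was 0.06 and 0.069. After LPS the GM values were 0.04 for both genes, and in M cells both were lower on noTC, at -0.26 ± 0.05 for Actb and -0.17 ± 0.05 for Actg1. The Actg1 call was lost by library size only and without M-TC-LPS replicate 1 (-0.14) or M-noTC-LPS replicate 2. Gsn was higher on noTC by 0.42 ± 0.05 in GM and 0.22 ± 0.05 in M cells at steady state, and by 0.35 ± 0.05 and 0.16 ± 0.05 after LPS. The last call was lost when any 1 of the 4 libraries was left out, at values from 0.15 to 0.17. Coro1a was higher by 0.53 ± 0.06 in GM and 0.24 ± 0.05 in M cells at steady state, and by 0.18 and 0.11 after LPS, which did not pass.

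In GM cells at steady state the other calls were Lcp1, Flna, Actn1 and Myh9, at 0.30 to 0.36, and Marcksl1 at 0.52 ± 0.08. The GM-TC replicates were split for Flna (1197 and 929 CPM) and Myh9 (794 and 594). Flna stood at 0.54 without GM-TC replicate 1 and at 0.18 without replicate 2, and Myh9 at 0.58 and 0.17. Without GM-noTC replicate 1 the calls of Myh9 (0.34) and Actn1 (0.24) were lost. A share of other libraries was read from genes close to 0 on TC at steady state and high on average in the other libraries. These were the LPS libraries and the noTC steady state libraries of the other cell. In the noTC steady state libraries the reads of such genes corresponded to 0.675% of the level in the other libraries in GM cells, from 15 genes, and 0.6% in M cells, from 21 genes. The Marcksl1 rise in GM-noTC amounted to 0.571% of that level. With this share subtracted, an alternative chosen after seeing the data, Marcksl1 stood at -0.13 and was not called. Marcksl1 is itself high in the LPS libraries, like the genes from which the share was read. Reads from other libraries and low expression on noTC thus cannot be told apart by this subtraction. For the other members called higher on noTC at steady state, the rise amounted to 5.50% to 45.8% of that level, and its cause was not tested.

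In M cells at steady state the largest rise was that of Tagln2, at 0.69 ± 0.06 (adjusted p = 1.4e-08 in edgeR), with 177 and 181 CPM on TC and 289 and 288 on noTC. It was followed by Actg1, Evl (0.44), Flna and Actn4 (0.42 each), Tpm4 (0.38) and Actb. All 3 tropomyosins were called higher, by 0.23 to 0.38, and 5 of 6 bundling and crosslinking genes. Lower on noTC were Marcks at -0.48 ± 0.06, Rhob at -0.27 ± 0.07, Vasp at -0.19 and Wipf1 at -0.14. The Wipf1 call was lost without any 1 of the 4 libraries (-0.18 to -0.12), and the Vasp call without M-TC replicate 2 (-0.14) or M-noTC replicate 1 (-0.17). Without M-TC replicate 2, Ezr (0.18), Tpm1 (0.15), Rhoc (0.22) and Rhob lost their calls. Tpm1 also lost it without M-noTC replicate 1 or 2, Rhoc without M-noTC replicate 2 (0.25) and Rhob without M-noTC replicate 1 (-0.22). The heart and striated muscle markers, which hold sarcomeric actin and myosin genes, were low on noTC at steady state (0.943 to 1.83 CPM in sum over GM and M cells) and higher on TC, and their part in the members' differences was not tested.

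After LPS the dish gave the set's largest response in Tpm1, a tropomyosin of stress fibres. In M cells it was 29.8 and 27.9 CPM on TC and 53.4 and 50.5 on noTC, a log2 fold change of 0.85 ± 0.08 (adjusted p = 1.2e-07 in edgeR) without overlap. In GM cells the 2 dishes overlapped (0.05 ± 0.08). The smooth muscle and stroma markers summed to 40.4 and 44.8 CPM in M-TC-LPS and to 24.5 and 27.6 CPM in M-noTC-LPS. Most of either sum was Pdgfrb (35.4 and 21.5 CPM in the group means), and the part of these markers in the Tpm1 difference was not tested. Tagln2 stayed higher on noTC by 0.39 ± 0.06, and Actn4, Coro1c and Actn1 by 0.21 to 0.35. Without M-noTC-LPS replicate 1 the calls of Coro1c (0.18) and Actn1 (0.17) were lost, and that of Actn1 also without M-TC-LPS replicate 2 (0.19). Ezr (-0.39 ± 0.05), Vasp (-0.33), Tpm4 (-0.29) and Marcksl1 (-0.29 ± 0.05) were lower on noTC. In GM cells after LPS Swap70 joined Gsn, at 0.25 ± 0.05 (adjusted p = 0.011 in edgeR), but its call was lost without GM-TC-LPS replicate 1, GM-TC-LPS replicate 2 or GM-noTC-LPS replicate 1, with values over the leave-outs from 0.20 to 0.30.

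**Figure D5:**
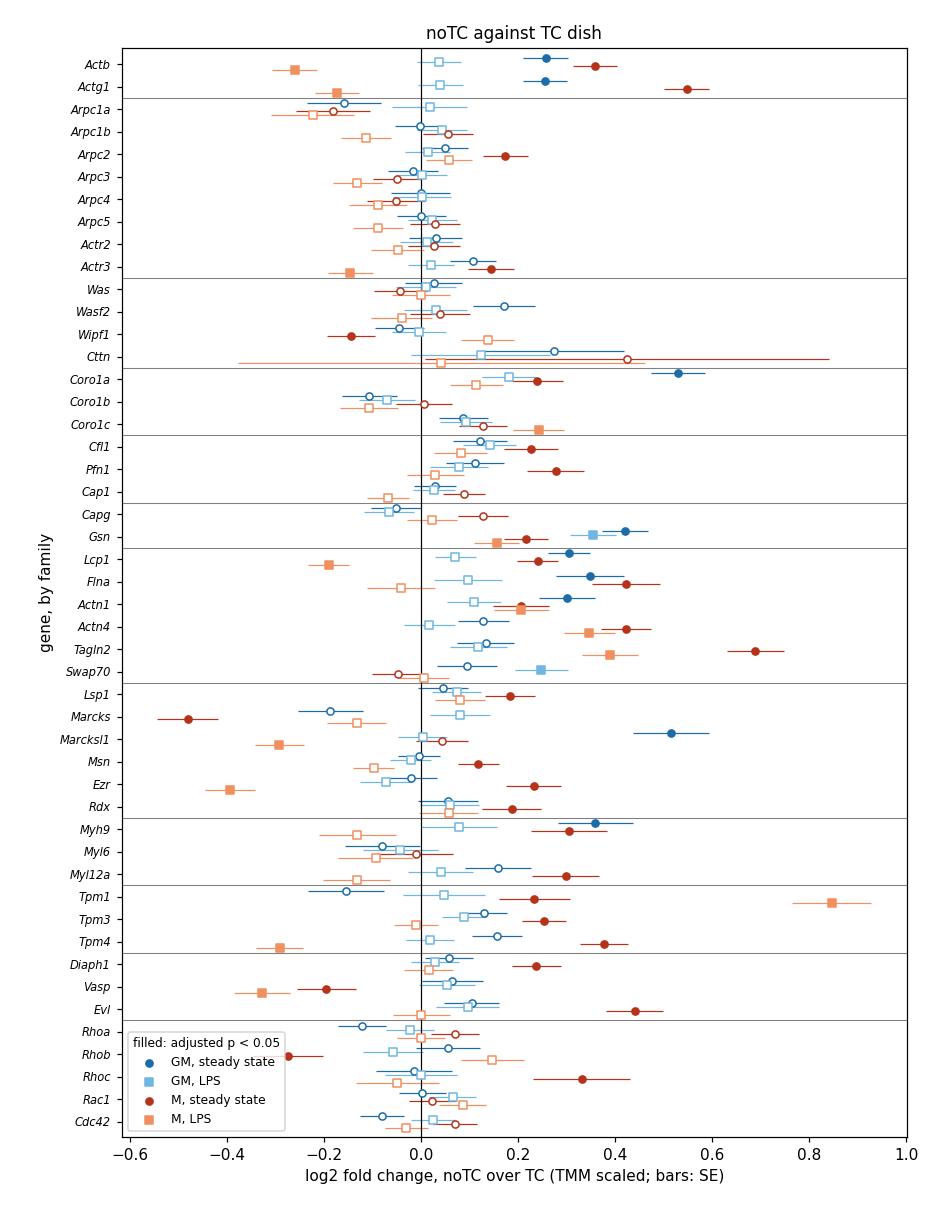
Log2 fold change of noTC over TC (x axis, TMM scaled, bars show the SE) of each of 48 genes (y axis, by family) in GM and M cells before and after LPS, filled where the adjusted p was under 0.05. Most filled points belong to M cells, Tpm1 in M cells after LPS lies furthest right at 0.85, and Gsn is filled in all 4 comparisons.

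Whether one factor altered the response to another was tested by interaction terms. The LPS response differed between GM and M cells for 29 of 48 members on TC, against 41.1% of all tested genes, and for 17 on noTC, against 36.2%. Ezr had the largest negative difference, with an LPS response lower in GM cells by -2.07 ± 0.08 on TC and -1.49 ± 0.08 on noTC on the log2 scale (edgeR adjusted p 4.6e-15 and 9.6e-13), and Marcksl1 the largest positive one, at 1.95 ± 0.09 and 1.78 ± 0.08. Evl followed at -1.70 and -1.27 and Diaph1 at -1.02 and -0.83. All 3 tested elongation factors thus had a lower LPS response in GM cells, which for Vasp was a smaller rise (-0.61 and -0.48). The actins responded less in GM cells on TC, by -0.76 for Actb and -0.57 for Actg1, while on noTC Actb passed at -0.36 and Actg1 did not at -0.06.

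The dish altered the LPS response of 18 members in M cells (10.6% of all genes) and of 2 in GM cells (0.783%). In M cells the responses of Actg1 (-0.72 ± 0.07), Tpm4 (-0.67 ± 0.07), Ezr (-0.63 ± 0.08), Actb (-0.62 ± 0.06), Evl (-0.44) and Lcp1 (-0.43) were smaller on noTC and those of Tpm1 (0.61) and Rhob (0.42) more positive. In GM cells the 2 were Marcksl1 (-0.51 ± 0.09) and Coro1a (-0.35 ± 0.08), and both calls were lost with the share of other libraries subtracted, where Marcksl1 stood at 0.14. Leaving out GM-noTC replicate 1 also ended both calls, and Coro1a lost its own without GM-noTC replicate 2 or any 1 of the 4 GM libraries with LPS. The count in GM cells was 5 without GM-TC replicate 1 and 4 without GM-TC replicate 2. The dish effect differed between GM and M cells for 12 members at steady state (11.2% of all genes) and 11 after LPS (10.6%). At steady state Tagln2 (-0.56 ± 0.08) and Marcksl1 (0.47 ± 0.09) led, the second at -0.14 after subtraction, and after LPS Tpm1 (-0.80 ± 0.12) and Vasp (0.38 ± 0.08). The steady state count was 7 in a fit to the 8 libraries concerned, 4 to 7 without any 1 of the GM-noTC and M libraries and 21 without GM-TC replicate 1, and the count after LPS was 7 without M-noTC-LPS replicate 1.

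A second list of actin regulators outside the set, 76 genes of which 75 were tested, is given for comparison. Upon LPS 42 were called higher and 22 lower (GM-TC), 42 and 21 (GM-noTC), 42 and 19 (M-TC), and 41 and 23 (M-noTC), against 32.8% to 37.6% of all tested genes higher and 34.2%, 34%, 36.4% and 35.9% lower. Between growth factors 31 were higher and 22 lower in GM cells on TC, 36 and 22 on noTC, 35 and 33 on TC after LPS, and 39 and 27 on noTC after LPS, against 31.4% to 33.9% and 28.9% to 32.9% of all tested genes. On noTC against TC 12 were higher and 0 lower in GM cells and 16 and 6 in M cells at steady state, and 5 and 0 and 8 and 20 after LPS. The shares over all tested genes were those given above for the same comparisons, 4.69% and 2.85%, 16.1% and 11.1%, 2.08% and 0.727%, and 10.4% and 12.9%. Fscn1, fascin, the bundler of filopodia and dendrites, had the largest LPS response, from 5.55 and 5.84 CPM to 89.3 and 102 in GM-TC and from 0.160 and 0.112 to 23.3 and 23.5 in M-TC, where the steady state was at the detection floor. Rnd3 went from 14.2 and 13.6 to 279.7 and 286 CPM in GM-TC and from 29.8 and 28.2 to 180.0 and 206 in M-TC. These LPS libraries lay above every steady state library of the same gene.

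Between growth factors the largest differences of that list were in Enah, the Ena/VASP relative Mena, and Scin, the gelsolin relative scinderin. Enah read 21.5 to 27.7 CPM in the GM libraries at steady state and 12.4 to 16.3 after LPS, against 0.348 to 0.711 in all M libraries, with log2 fold changes of 4.48 to 6.13. Scin read 0.924 to 3.95 CPM in GM libraries and 0 to 0.407 in M libraries, most of them at or under the floor. For the dish the list was led by Aif1, a calcium binding actin bundler of macrophages, and Myh10, another non-muscle myosin II heavy chain. Aif1 was higher on noTC in GM cells at steady state (0.68 ± 0.20, with 1.82 and 2.13 CPM on TC and 2.81 and 3.55 on noTC) and lower on noTC in M cells (-0.72 ± 0.11, with 15.5 and 15.8 on TC and 9.03 and 9.87 on noTC). Myh10 was higher on noTC in GM cells at steady state, at 4.04 and 2.54 CPM on TC and 6.40 and 6.54 on noTC (1.0 ± 0.19), and its M libraries at steady state overlapped at 2.97 to 3.27 CPM.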

How the data were processed

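RNA-seq libraries of 16 cultures were used. The deposited values are expected counts of 22287 genes, which the authors estimated with RSEM after alignment by HISAT and did not normalize. The submitters' processing notes also name fastp 0.18.0, Bowtie2 2.2.8 and StringTie 1.3.1. Which genome build and gene annotation they used is not given in the sources used here. Values were rounded to whole counts, passed through filterByExpr (12514 genes left of 16756 with a count), scaled with TMM and fitted once over the 8 groups with edgeR 4.0.16 in R 4.3.3, as a quasi-likelihood test without a replicate block. The common biological coefficient of variation was 4.75%. A call is a Benjamini-Hochberg adjusted p under 0.05 over all genes tested. CPM are TMM scaled. Bulk libraries of 2 per group cannot pass an exact permutation test (smallest p 0.333). The share of other libraries was read from genes under 1 CPM on TC at steady state in the cell concerned. Their mean was at least 100 CPM over the LPS libraries and the other cell's noTC steady state libraries, with CPM by library size. The tests were also run on simulated counts with the common dispersion for every gene and changed genes in GM-TC-LPS only. These counts held no broad shift in composition and no noisier group, so such conditions were not checked.

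Values in every library are given for Actb, Actg1 and each member among the 3 largest called changes of a comparison, up to 2 members per interaction are named, and per factor the 2 leading genes of the second list. Other members appear as examples. The members, lists and tests were chosen with earlier results of these data known. In that list Mkl1 and Mkl2 are older names of Mrtfa and Mrtfb. Alternatives were DESeq2 1.42.0, its size factors, library size only, no filter, the libraries of the comparison only, a replicate block, a fold change above 1.5, each library left out, and a subtraction of the share of other libraries chosen after seeing the data. Replicate numbers did not pair the libraries (correlation of deviations -0.0636 to 0.0361).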

Additional observations from a re-analysis of the deposited data

Results flagged for a closer look

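The results below were singled out because an effect differed between groups of cultures by the interaction test of edgeR, and no explanation was weighed. The LPS response differed between GM and M cells for 29 of 48 members on TC (41.1% of all tested genes) and 17 on noTC (36.2%). The largest differences were those of Ezr (-2.07 on TC, -1.49 on noTC, on the log2 scale) and Marcksl1 (1.95 and 1.78). The dish changed the LPS response of 2 members in GM cells (0.783% of all tested genes), Marcksl1 (-0.51) and Coro1a (-0.35). Both calls were lost with the share of other libraries subtracted, where Marcksl1 stood at 0.14, and without GM-noTC replicate 1. In M cells the dish changed the LPS response of 18 (10.6%), led by Actg1 (-0.72) and Tpm4 (-0.67). The dish effect differed between GM and M cells for 12 members at steady state (11.2% of all tested genes), led by Tagln2 (-0.56) and Marcksl1 (0.47). Marcksl1 stood at -0.14 after the subtraction, and the count of 12 varied with the library left out. After LPS the dish effect differed for 11 (10.6%), led by Tpm1 (-0.80) and Vasp (0.38).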

How the results depend on the processing

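Requiring a fold change above 1.5, LPS gave 19 calls higher and 3 lower (GM-TC), 17 and 3 (GM-noTC), 26 and 2 (M-TC), and 21 and 2 (M-noTC). The calls higher on noTC were 0 in GM and 1 in M cells at steady state and 0 and 1 after LPS, and 0 lower in M cells in both states. Between growth factors they were 11 higher and 6 lower on TC, 8 and 5 on noTC, 4 and 13 on TC after LPS, and 5 and 10 on noTC after LPS. The interaction counts were 9 and 5 (growth factor and LPS on TC and noTC), 0 and 5 (dish and LPS in GM and M) and 0 and 1 (dish and growth factor). Shares of all tested genes are given for the main setting only, so member counts under other settings stand without one.

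By library size only the LPS calls were 19 higher and 24 lower (GM-TC), 17 and 25 (GM-noTC), 18 and 25 (M-TC) and 16 and 27 (M-noTC). The median log2 fold change of the members was -0.12, -0.13, -0.11 and -0.26, against -0.53, -0.54, -0.83 and -0.73 over all tested genes. The dish calls in M cells after LPS were 13 higher and 5 lower, and 11 members were higher in GM cells on noTC at steady state. The construction of this setting, without a correction for composition, moves all genes together. Of the members called under both scalings, 12 and 10 had opposite signs upon LPS in GM cells on TC and noTC, 16 and 15 in M cells, 1 between growth factors (Capg, noTC at steady state) and 0 between dishes. Among the 14 members with values in every library, counting those called under either scaling, the log2 fold changes reversed for Tagln2 between growth factors on noTC (-0.12), and upon LPS for Coro1a (-0.13, -0.51 and -0.80 in GM-TC, GM-noTC and M-TC), Ezr (-0.19 and -0.27 in the GM cultures), Cttn (-0.32 in GM-noTC), Gsn (-0.74 and -0.70 in the M cultures) and Tpm1 (-0.67 in M-noTC).

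In a fit to the libraries of the comparison only, 4 members were higher on noTC in GM cells, 7 lower upon LPS in M-noTC, 1 had a dish and LPS interaction in GM cells and 7 a dish and growth factor interaction at steady state. DESeq2 gave 4 for the dish and LPS interaction in GM cells, and the subtraction of the share of other libraries gave 0. After subtraction Marcksl1 reversed for the dish in GM cells (-0.13), dish and LPS (0.14) and dish and growth factor (-0.14). The cause was not tested for any of these shifts.

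Leaving out 1 library, the lone library was assumed to vary like the others. Over these fits the calls on noTC were 7 to 15 higher and 0 to 4 lower in GM and 15 to 18 higher and 1 to 3 lower in M cells at steady state, 1 to 2 higher in GM and 3 to 5 higher in M cells after LPS. The interactions were 0 to 5 for dish and LPS in GM cells, 4 to 21 for dish and growth factor at steady state and 7 to 10 after LPS. The replicate block, which pairs libraries by number only, kept each count within 1.5 times and each of 180 named calls on its side of the threshold. DESeq2 size factors did so for 178 of 180. A floor of 0.0954 to 0.171 CPM limits Myl9, and Cttn, Scin and Fscn1 in M cells at steady state.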
